A study of Mus musculus with 10 samples.

Results

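The 10 genes of antigen presentation by the major histocompatibility complex (MHC) were read in adult mouse hippocampus: H2-K1, H2-D1, B2m, Tap1, Tap2 and Tapbp of class I, and H2-Aa, H2-Ab1, H2-Eb1 and Cd74 of class II. Members were all non-control probes whose gene name in the scanner files was 1 of these 10 names. Of the 10 genes, 9 had such a probe, H2-D1 had none, and the 9 genes had 19 of the 41174 non-control probes. Hippocampal RNA came from 10 adult offspring of ICR mice, an outbred stock, all labelled male, with 1 single-colour Agilent array per animal. In the high estradiol group (HE, 5 arrays), pregnant dams were given estradiol valerate by mouth, an ester that is cleaved to estradiol, in corn oil. The daily dose was 100 µg/kg, starting on embryonic day E5.5 and ending on E11.5. Control dams (NC, 5 arrays) were given corn oil alone. No litter is named in the labels, and a p-value here covers only the variation among these 10 animals. Signals are log2 values relative to the 75th percentile of the array, and a value of 0 therefore equals that percentile.

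MHC class I molecules stand on nearly all nucleated cells and show peptides made in the cytosol to CD8 T cells. A heavy chain such as H2-K1 or H2-D1 pairs with the light chain B2m, the transporter subunits Tap1 and Tap2 carry peptides into the endoplasmic reticulum, and tapasin, made by Tapbp, holds the empty molecule next to the transporter. MHC class II molecules show peptides taken up from outside to CD4 T cells, are made mainly by professional antigen-presenting cells, and in healthy brain are found chiefly on macrophages and dendritic cells of its borders rather than on resting microglia. Their alpha chain (H2-Aa) and beta chains (H2-Ab1, H2-Eb1) assemble on the invariant chain Cd74, which blocks the groove until the endosome. In neurons of the hippocampus, class I genes are also known for roles at synapses.

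None of the members passed the test between HE and NC when each gene was represented by its brightest probe. There were 8 genes with a probe that entered the test, for which 3 or more of the 5 arrays in a group had to be well above background. Of 4 class I and 4 class II genes tested, 0 and 0 passed limma at an adjusted p under 0.05, where 4090 of all 20066 genes tested, or 20.4%, did. At an unadjusted p under 0.05 there were 2 of 4 class I and 0 of 4 class II genes, beside 36.9% of all genes tested. Tap1 was measured by 1 probe that was not well above background on any of the 10 arrays, and no change is given for it. The groups overlapped for each of the 17 entering member probes, while they did not overlap for 5397 of 30978 probes, or 17.4%.

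Signals of marker genes of other tissues and cell types were also compared between the groups. Over all genes tested 13.9% fell, 6.48% rose and 11238 of 20066 had negative values. All 8 thalamus markers fell in HE. With slide as a block their calls were lost. Within slide 2, which holds 1 NC array, their median difference was -3.18, a value with no test. Their summed signal lay between 4.71 and 6.11 on NC arrays and between 2.39 and 4.09 on HE arrays, without overlap. Of 7 tested liver transcripts 3 fell, the lowest being Apoa2, an apolipoprotein, well above background on 4 NC arrays and on 0 HE arrays. All liver transcripts but Ttr entered the test through the NC arrays alone, where they are high. The filter thus favoured falls among them, and their count is no measure of a difference between the groups. With slide as a block 0 of the 7 passed. Of 10 endothelial markers 9 were negative and 2 fell, Ly6c1 (-0.70, adjusted p = 0.0207 in limma) and Kdr, a receptor for vascular growth factor (-0.58, adjusted p = 0.0230), and 1 of 10 passed with slide as a block, Ly6c1 (-1.32, adjusted p = 0.0499). The share of endothelial markers that fell, 20%, was near the 13.9% of all genes tested. Their summed signal was 2.70 to 3.48 in NC and 2.59 to 2.76 in HE. Of 6 astrocyte markers 1 fell (16.7%, also near that share), the water channel Aqp4 (-0.89, adjusted p = 0.0271 in limma). The 2 red cell markers were at -1.18 and -1.19 without passing. All 6 hippocampal neuron markers were well above background on all arrays, and 1 of them rose (16.7%, beside 6.48% of all genes tested). Xist, the RNA of the inactive X chromosome, was high on 7 of the 10 arrays (4 NC and 3 HE) despite the male label. The arrays lay on 3 slides, with 4 NC arrays on slide 1, NC 5 and 2 HE arrays on slide 2, and 3 HE arrays on slide 3. Slide and group are thus largely confounded, and a difference in tissue cannot be told apart from one in slide. The 75th percentile of the signal was 898 to 1277. Between 70.3% and 78.8% of all probes stood well above background. The part of these differences in the results below was not tested, and in such bulk tissue fewer cells of a type and less RNA per cell cannot be told apart.

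**Figure D1:**
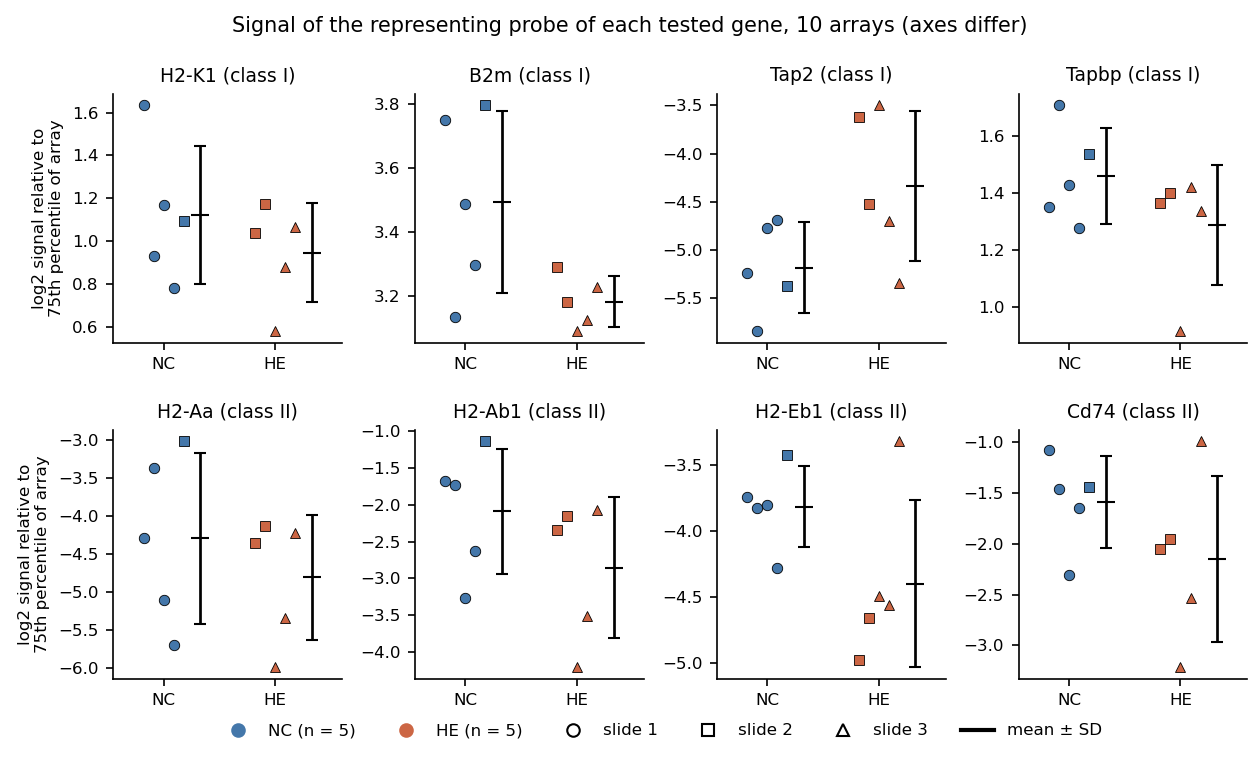
Signal of the probe that represents each of the 8 tested genes, as log2 relative to the 75th percentile of the array, for 5 NC (blue) and 5 HE (orange) arrays. Symbols give the slide and bars the mean ± SD, the vertical axes differ between panels, and the groups overlap in every panel.

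The class I light chain B2m had the smallest spread among HE arrays. On NC 1 to NC 5 its probe (A_51_P129012, chromosome 2, 121978401 to 121978460, mm9) gave 3.75, 3.14, 3.49, 3.30 and 3.80. The 5 HE arrays gave 3.29, 3.18, 3.09, 3.12 and 3.23. NC 1, NC 3, NC 4 and NC 5 lay above all HE arrays, NC 4 by little, and NC 2 lay inside their range. The means were 3.49 ± 0.29 in NC and 3.18 ± 0.08 in HE (SD, n = 5). The difference was -0.31 ± 0.13 (SE) on the log2 scale, with an adjusted p of 0.121 in limma. A probe placed nearby in the same transcript record (A_51_P129006, 10 spots) had a difference of -0.33 and an r of 0.99 with the former over the 10 arrays.

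B2m was also read by another, dim probe, and this one passed at the level of probes. The probe A_52_P105594 belongs to another transcript record and maps to chromosome 2, 121974599 to 121974658 (mm9, plus strand), upstream of the other B2m probes. It read -4.89, -5.90, -5.04, -5.54 and -5.26 on NC 1 to NC 5 and -5.88, -6.10, -6.45, -6.05 and -5.97 on HE 1 to HE 5. Only NC 2 lay inside the HE range. It fell by 0.76 on the log2 scale in HE (95% confidence interval -1.19 to -0.33, adjusted p = 0.0225 in limma over 30978 probes), and it was well above background on 3 NC and 4 HE arrays. Of the 17 entering member probes, 2 passed this test, and 23.2% of all probes did. Without NC 5 the adjusted p was 0.0504, and after quantile normalization the difference was -0.42 with an adjusted p of 0.138.

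The heavy chain H2-K1 was read by 4 probes that did not move together. Of these, 2 start at positions 1405 and 1488 of their transcript records, towards the 3′ end, and 2 start at 364 and 554. The probe that represents the gene is the brightest 3′ probe (A_51_P198434, chromosome 17, 34133055 to 34133114, mm9, minus strand). It read 1.64, 0.93, 1.17, 0.78 and 1.09 in NC and 1.04, 1.17, 0.58, 0.88 and 1.06 in HE. The HE values lay within the NC range, apart from HE 3 below it, and the difference was -0.18 ± 0.17 (SE, adjusted p = 0.487 in limma). Its 10 spots varied by an SD of 0.0371 to 0.0682 within an array, far less than the SD of 0.32 between NC arrays. The other 3′ probe, A_51_P190499, differs from it at 8 of 57 aligned bases, maps nowhere on mm9 in the scanner files and followed it closely (r = 0.97 over the 10 arrays).

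The 2 inner probes of H2-K1 are shown because their signals had the opposite sign. They are given 5′ to 3′ as in the scanner files, without capitals because no part is singled out.
H2-K1 A_52_P474242: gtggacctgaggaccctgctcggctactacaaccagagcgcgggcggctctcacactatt
H2-K1 A_52_P50496: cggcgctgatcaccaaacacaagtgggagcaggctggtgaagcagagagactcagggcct
The first lies on chromosome 17 between 34136478 and 34136724 and the second between 34136288 and 34136347 (mm9, minus strand). In the files, the 60 bases of the first are placed over 247 bases of the genome. Among the probes that share a run of 12 or more bases with a member probe, none of another gene aligned to it without gaps over at least 30 bases at 85% identity. Only probes on the array were compared, not transcripts. Whether these probes also read H2-D1, which has no probe of that name, or other class I genes was not tested.

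The first inner probe passed at the level of probes and was higher in HE. It read -1.98, -2.08, -1.45, -1.91 and -1.88 in NC and -1.19, -1.39, -1.49, -1.39 and -1.38 in HE. NC 1, NC 2, NC 4 and NC 5 lay below all HE arrays, and NC 3 lay among them. The rise was 0.49 on the log2 scale (95% confidence interval 0.22 to 0.77), with an adjusted p of 0.0215 in limma over the probes. The second inner probe read -3.18, -3.11, -2.25, -3.85 and -3.54 in NC and -2.70, -2.68, -2.54, -2.98 and -2.33 in HE. NC 3 lay above all HE arrays and the other NC arrays below them, and the difference was 0.54 with an adjusted p of 0.160. The inner probes had r = 0.72 with each other and r between -0.26 and 0.03 with the 3′ probes.

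The gap between inner and 3′ probes of H2-K1 depended on the background correction. It was taken on each array as the mean of the 2 inner minus the mean of the 2 3′ probes, a contrast chosen because of the signs seen and given without a test. The gap was -2.87 ± 0.47 in NC and -2.15 ± 0.20 in HE (SD, n = 5), a difference of 0.72. With normexp, another background correction, the difference was -0.02, and the first inner probe alone differed by 0.01 (adjusted p = 0.963). The call of that probe was also lost without NC 2 (adjusted p = 0.0530), without HE 1 (0.0550) and without the 3 NC arrays with high Alb (difference 0.30, adjusted p = 0.196).

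**Figure D2:**
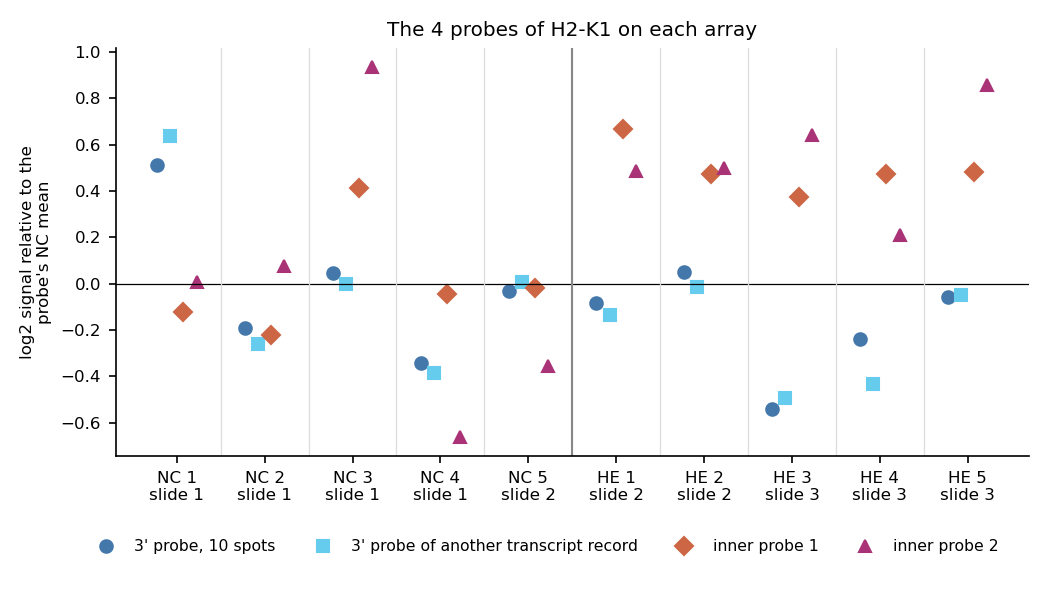
Log2 signal of the 4 H2-K1 probes on each array, relative to the mean of that probe over NC arrays. Both 3′ probes (blue) run together, and both inner probes (orange and purple) lie above 0 on all 5 HE arrays and on NC 3.

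Tap2 and Tapbp, which load class I molecules, showed no passing change. Tap2 has 1 probe (chromosome 17, 34351722 to 34352309, mm9). It read -5.24, -5.85, -4.77, -4.69 and -5.38 in NC and -3.62, -4.52, -3.49, -4.70 and -5.35 in HE. HE 1, HE 2 and HE 3 lay above every NC array. Tap2 was the sole class I gene tested with a positive value, 0.85 ± 0.37 (SE, adjusted p = 0.124 in limma), and with normexp it was -0.85 (adjusted p = 0.128).

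Tapbp read 1.35, 1.71, 1.43, 1.28 and 1.54 in NC and 1.37, 1.40, 0.92, 1.42 and 1.34 in HE with its bright probe (chromosome 17, 34066022 to 34066081, mm9). HE 3 stood apart at the low end and the other arrays overlapped. The difference was -0.17 ± 0.12 (SE, adjusted p = 0.340 in limma), and with the second, dimmer probe it was 0.03. Class I values were thus negative for 3 of 4 genes, but after normexp and centring of each array on its median gene H2-K1, B2m and Tapbp were positive and Tap2 was negative. The median over the 4 genes was -0.17, beside -0.06 over all genes tested.

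**Figure D3:**
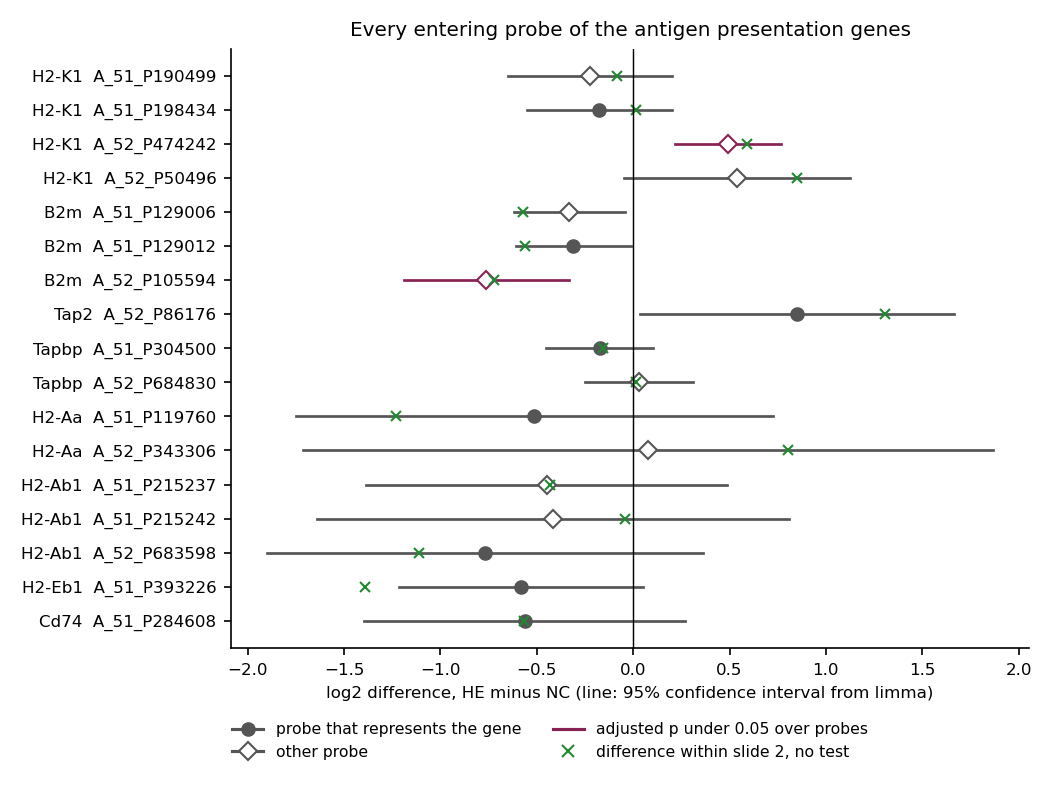
Log2 difference of HE minus NC for the 17 entering probes, with 95% confidence intervals from limma over 10 arrays and, as crosses, the difference within slide 2 (2 HE arrays minus 1 NC array). The 2 probes in purple, A_52_P474242 of H2-K1 and A_52_P105594 of B2m, passed over all probes on this scale.

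Class II signals varied widely from animal to animal, and all 4 genes had lower means in HE without passing the test. Whether animals of this outbred stock differ in sequence under the probes was not tested, here or for the other H2 genes. A difference in signal can therefore not be told apart from one in probe match. H2-Ab1, the beta chain of the I-A molecule, gave the largest of the 4 differences in mean. Its probe A_52_P683598 (chromosome 17, 34406059 to 34406118, mm9, plus strand) read -1.68, -1.73, -3.27, -2.63 and -1.14 in NC and -2.34, -2.15, -4.21, -3.51 and -2.07 in HE. NC 5 was highest and HE 3 lowest, and HE 1, HE 2 and HE 5 lay inside the NC range. The means were -2.09 ± 0.85 and -2.86 ± 0.95 (SD, n = 5), a difference of -0.77 ± 0.51 (SE, 95% confidence interval -1.91 to 0.37, adjusted p = 0.304 in limma).

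A further 2 H2-Ab1 probes entered the test and followed the first, with r of 0.96 and 0.86 over the 10 arrays and differences of -0.45 and -0.42. The fourth was well above background on 0 NC and 2 HE arrays and was not tested. It comes from another transcript record, maps nowhere on mm9 in the scanner files, and overlaps A_51_P215242 by 31 bases. Both are shown because their shared stretch holds different letters, the bases that differ in capitals (2 of the 31).
H2-Ab1 A_51_P215242: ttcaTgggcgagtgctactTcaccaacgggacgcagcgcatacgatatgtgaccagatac
H2-Ab1 A_52_P570717: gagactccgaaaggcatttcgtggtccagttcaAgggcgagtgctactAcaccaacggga
The first of these, on chromosome 17 between 34401723 and 34401782 (mm9, plus strand), was well above background on 2 NC and 3 HE arrays. The second read -8.38 to -6.53 in NC and -8.89 to -6.63 in HE, and its groups overlapped.

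H2-Aa, the alpha chain that pairs with H2-Ab1, read -4.29, -3.37, -5.10, -5.70 and -3.01 in NC and -4.35, -4.14, -6.00, -5.34 and -4.22 in HE (probe A_51_P119760, chromosome 17, 34420627 to 34420686, mm9, minus strand). Its arrays were spread over 2.99 log2 units, again from HE 3 to NC 5. The difference was -0.51 ± 0.56 (SE, adjusted p = 0.542 in limma). A dim second probe, well above background on 3 NC and 4 HE arrays, gave 0.08 with an interval from -1.71 to 1.87.

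H2-Eb1, the beta chain of the I-E molecule, was lower on 4 HE arrays than on every NC array. It read -3.74, -3.83, -3.80, -4.28 and -3.43 in NC and -4.97, -4.66, -4.49, -4.56 and -3.32 in HE (chromosome 17, between 34452050 and 34452511, mm9, plus strand). HE 5 was the highest of all 10 arrays. The difference was -0.58 ± 0.29 (SE, adjusted p = 0.168 in limma), and without HE 5 it was -0.85 (adjusted p = 0.0226). Within slide 2 both HE arrays were lower than NC 5, by 1.39 on average, a value with no test.

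Cd74, the invariant chain, read -1.08, -1.46, -2.31, -1.65 and -1.44 in NC and -2.06, -1.96, -3.22, -2.53 and -0.99 in HE. HE 5 was again the highest array and HE 3 the lowest. The means were -1.59 ± 0.45 in NC and -2.15 ± 0.82 in HE (SD, n = 5), with a difference of -0.56 ± 0.38 (SE, adjusted p = 0.306 in limma). The median difference over the 4 class II genes was -0.57, beside -0.06 over all genes tested. With normexp, which moved the median of all genes to -0.29, H2-Aa (-1.32, adjusted p = 0.0291) and H2-Eb1 (-1.34, adjusted p = 0.0228) passed. With slide as a block, which leaves the difference within slide 2, none of the 8 members passed, and 1.02% of all genes did.

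Spreads within groups were wide for class II genes and for Tap2. The SD within groups was 0.99 for H2-Aa, 0.90 for H2-Ab1, 0.66 for Cd74 and 0.50 for H2-Eb1, where the median over all genes tested was 0.26. H2-Aa, H2-Ab1, Cd74 and H2-Eb1 lay at the 96.9th, 95.9th, 89.9th and 80.3rd percentile of all genes by this spread, and at the 95.2nd, 96.7th, 94.4th and 69.3rd among genes of like signal (20 bins by mean). In class I the SD was 0.64 for Tap2 (89.2nd percentile, 81.0th among genes of like signal), 0.28 for H2-K1, 0.21 for B2m and 0.19 for Tapbp.

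The spread of H2-Ab1 ran in step with that of H2-Aa and Cd74. Over the 10 arrays, H2-Aa and H2-Ab1 had Pearson's r = 0.89 (permutation p = 0.00042, adjusted p = 0.0118 over 28 relations between members) and Spearman's rho = 0.88 (adjusted permutation p = 0.0249). Without the 2 arrays farthest from the median of H2-Aa, r was 0.93, and after removing group means it was 0.89. H2-Ab1 and Cd74 had r = 0.88 (permutation p = 0.00085, adjusted p = 0.0119) and rho = 0.88 (adjusted permutation p = 0.0249), with r = 0.67 without the 2 farthest arrays. H2-Eb1 was looser, with r = 0.46 to H2-Aa and 0.50 to H2-Ab1 (adjusted permutation p = 0.234 and 0.223). Of the 28 relations, 6 passed by Pearson's r and 2 by both measures. The other 4 were Tapbp with H2-Aa (r = 0.76) and Tap2 with Tapbp, H2-Eb1 and Cd74 (r of -0.75, -0.79 and -0.76). No slide holds enough arrays for a value of its own. The share of pairs of all genes with an r this high was not worked out.

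**Figure D4:**
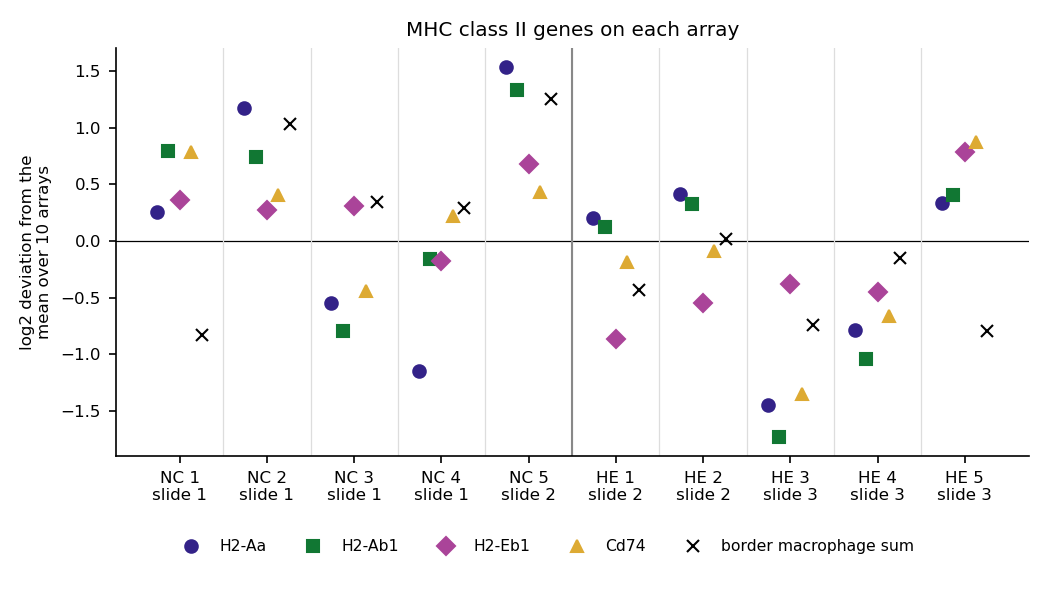
Log2 deviation of the 4 class II genes from their mean over the 10 arrays, with the summed signal of the tested border macrophage markers as crosses. H2-Aa, H2-Ab1 and Cd74 are all lowest on HE 3, and H2-Eb1 and Cd74 are highest on HE 5.

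The genes whose pattern was most like that of a member were taken by Pearson's r over the 10 arrays after group means were removed. For B2m these were Gbp8, an interferon-inducible guanylate-binding protein (r = 0.94), BC058680 (0.92) and AK158867 (0.91). For H2-Ab1 they were A730011C13Rik (r = 0.96), Col7a1, a collagen of anchoring fibrils (0.95), and Birc7, an inhibitor of apoptosis (0.95). For Cd74 they were the transcripts AK034071, AK079244 and E330021A06Rik, all at r = 0.97. AK158867 and Birc7 were dim, each well above background on 2 NC and 4 HE arrays. Their differences were positive (0.45 and 0.35) without passing. The other genes named here had negative differences. Of these, Col7a1 (-0.63, adjusted p = 0.0373 in limma), AK034071 (-0.92, 0.0368) and E330021A06Rik (-1.12, 0.0297) fell, where 13.9% of all genes tested did. These r values are the highest among the tested genes outside the members and carry no test. For H2-Ab1 they lay above its r with H2-Aa (0.89) and with Cd74 (0.85) after group means were removed.

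For 7 of the members the probes were placed on mouse chromosome 17. They span 389 kb on mm9, from 34063096 to 34452511, in the order Tapbp, H2-K1, Tap1, Tap2, H2-Ab1, H2-Aa and H2-Eb1. H2-D1, which has no probe of that name, lies on the same chromosome by its RefSeq promoter entry, and B2m lies on chromosome 2. In this order Tapbp and H2-K1 were negative, Tap2 was positive (negative with normexp) and H2-Ab1, H2-Aa and H2-Eb1 were negative, where H2-K1 and Tapbp were positive with centred normexp.

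Promoter sequences were read for the members because class II promoters are known to be bound through a shared Y-box and X-box by NF-Y, CREB-type factors and the RFX complex, which recruit the transactivator Ciita. RefSeq entries (GRCm38.p6) were matched for 7 of the 10 members by symbol, and H2-Ab1, Tap2 and Cd74 had none. The 250 bases before the start are shown for H2-Aa, for H2-Eb1, which varied less closely with it, and for B2m of class I. Capitals mark GATTGG, the core of the Y-box, and TGACG, the core of a CREB site, on either strand, and these 2 motifs share no letters here.
H2-Aa promoter: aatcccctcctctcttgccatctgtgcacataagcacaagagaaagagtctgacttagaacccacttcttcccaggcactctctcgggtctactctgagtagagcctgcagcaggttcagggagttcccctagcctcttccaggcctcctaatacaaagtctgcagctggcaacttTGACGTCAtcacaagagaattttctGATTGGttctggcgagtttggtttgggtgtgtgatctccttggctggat
H2-Eb1 promoter: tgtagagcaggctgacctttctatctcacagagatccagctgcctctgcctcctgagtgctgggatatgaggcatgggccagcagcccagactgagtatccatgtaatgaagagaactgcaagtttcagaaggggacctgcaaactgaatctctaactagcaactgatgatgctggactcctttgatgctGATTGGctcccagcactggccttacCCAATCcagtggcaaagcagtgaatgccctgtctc
B2m promoter: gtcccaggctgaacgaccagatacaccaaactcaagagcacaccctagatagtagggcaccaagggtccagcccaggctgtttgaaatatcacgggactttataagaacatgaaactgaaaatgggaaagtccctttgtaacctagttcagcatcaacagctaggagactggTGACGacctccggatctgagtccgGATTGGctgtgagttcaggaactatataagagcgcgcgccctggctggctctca
They lie at chr17:34287824-34288073 (minus strand), chr17:34305617-34305866 (plus strand) and chr2:122147437-122147686 (plus strand) of GRCm38.p6. GATTGG began 49 bases before the start in H2-Aa, 60 and 35 in H2-Eb1 and 54 in B2m. It was present in 6 of the 7 matched members, counted by gene over any entry, and in 14.6% of 32851 single windows of the same length over all genes. H2-K1 counted only by its entry 2, with a match 6 bases before the start, and Tap1 by a match 222 bases before it. TGACG was present in 5 of 7 members and 17.8% of windows, and in H2-Aa it occurred on both strands as a palindrome. A match is a run of letters and was not tested as a binding site.

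Of 27 other genes of class I presentation on the array, 26 were tested and 0 passed limma by their brightest probe, where 20.4% of all genes did. An unadjusted p under 0.05 was reached by 6 of 26 (23.1%, beside 36.9% of all genes), and 20 values were negative, beside 11238 of all 20066. Their median difference was -0.24, beside -0.06 over all genes tested. The smallest p values were those of Canx, the lectin chaperone calnexin (-0.23 ± 0.08 SE, adjusted p = 0.0687), and Cd1d1, which presents lipids to NKT cells (-0.80 ± 0.30 SE, adjusted p = 0.0816). Canx was 0.04 with normexp and 0.26 with centred normexp, and it passed with a robust prior (adjusted p = 0.0340) and without NC 1 (0.0345). Cd1d1 passed with normexp (-1.20, adjusted p = 0.0103), with Xist status as a covariate (0.0328) and without NC 1 (0.0295). At the level of probes, other probes of Canx (A_51_P242143, -0.47, adjusted p = 0.0153 in limma) and of Calr, the chaperone calreticulin (A_52_P672212, 0.51, adjusted p = 0.0441), passed and were singled out after their values were seen.

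Of the class II pathway, 14 of 20 genes on the array were tested, 1 rose and 2 fell. H2-DMa, a chain of the peptide exchanger that takes the Cd74 fragment out of class II molecules, rose by 0.77 ± 0.19 (SE, adjusted p = 0.0221 in limma). Rfxank, a subunit of the RFX complex, fell by 0.84 on the log2 scale (SE 0.15, adjusted p = 0.0108), and Ifi30, a thiol reductase of the endosome that unfolds antigens, fell by 0.63 (SE 0.15, adjusted p = 0.0207). The median over the 14 genes was -0.08. Ciita, which acts on class II promoters as their master regulator, was among the 6 genes not tested for lack of signal above background. The call of H2-DMa was lost without NC 2 (adjusted p = 0.0555) and without NC 5 (0.0525), without the 3 NC arrays with high Alb (0.0961) and with normexp, where the difference was 0.34 (0.226). Over all genes tested 6.48% rose and 13.9% fell.

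Of 24 genes of interferon signalling and response, which sets MHC levels in many cells, 4 (16.7%) fell and 0 rose, where 13.9% of all genes tested fell and 6.48% rose. Oas1a, a sensor of double-stranded RNA, fell by 0.99 on the log2 scale (SE 0.17, adjusted p = 0.00976 in limma), and Ifit1, which binds foreign RNA ends, fell by 1.07 (SE 0.26, adjusted p = 0.0206). Irf9, the DNA-binding part of the factor downstream of type I interferon, fell by 0.71 (SE 0.18, adjusted p = 0.0231). Ifngr1, the ligand-binding chain of the interferon gamma receptor, fell by 0.32 (SE 0.08, adjusted p = 0.0258), but was 0.10 with centred normexp. The median over the 24 genes was -0.20, with 17 negative values, beside 11238 of all 20066. The call of Ifngr1 was lost without NC 2 (adjusted p = 0.0621 in limma), HE 1 (0.0663) or HE 4 (0.0582). That of Irf9 was lost without HE 4 (0.0501). Without NC 5, the calls of Irf9 (adjusted p = 0.0513) and Ifngr1 (0.0548) were also lost, and the 3 lists together fell from 7 calls to 4. With slide as a block 1 of their genes passed, Ifit3, which is not among those 7 (-1.19, adjusted p = 0.0499).

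**Figure D5:**
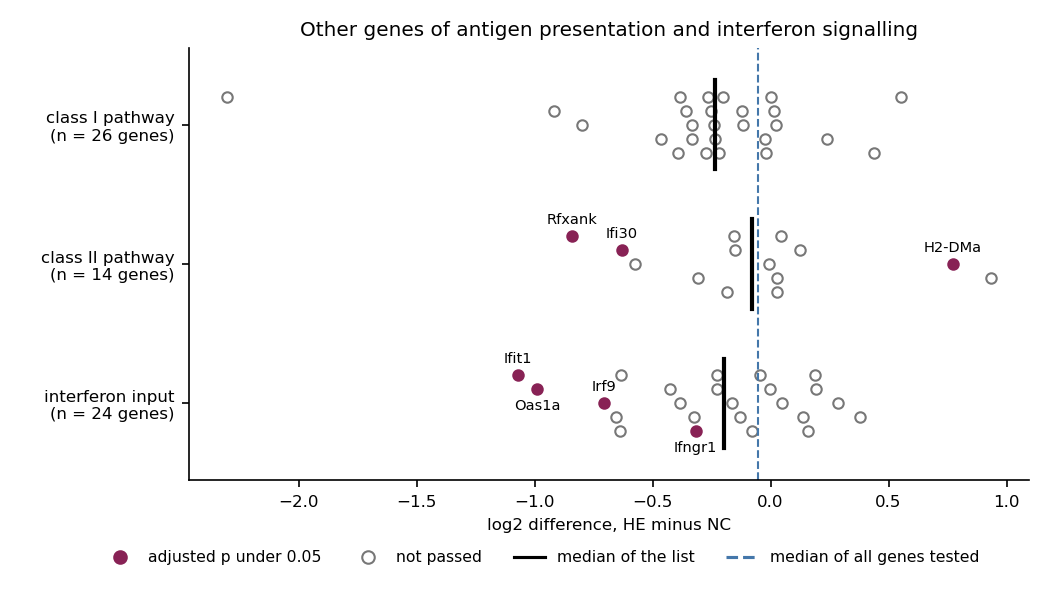
Log2 difference of HE minus NC for each tested gene of the 3 lists, with filled points for an adjusted p under 0.05 in limma. Of the class II pathway 1 gene rose and 2 fell, and of the interferon list 4 fell, of which Ifngr1 turned positive with normexp centred on the median gene.

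Markers of cells that carry class II molecules were set beside the members. For border macrophages, 7 of 8 markers were tested, all 7 were negative and 0 passed limma (2 at an unadjusted p under 0.05), with a median of -0.60. They ran from Lyve1, a hyaluronan receptor (-1.13, adjusted p = 0.129), to Cd163, a haemoglobin scavenger receptor (-0.18, adjusted p = 0.637). Their summed signal was -0.56 to 1.53 in NC and -0.52 to 0.29 in HE, while the summed signal of the class II members was -1.30 to 0.06 in NC and -2.17 to -0.16 in HE. NC 5 was highest in both sums, NC 2 was high in both (-0.27 for class II and 1.31 for macrophages), and HE 3, lowest in class II, had a low macrophage sum (-0.47). On NC 1 and HE 5, which were high in class II, the macrophage sum was low (-0.56 and -0.52).

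Of 14 microglia markers, 1 passed, the fractalkine receptor Cx3cr1, which rose by 0.63 on the log2 scale (adjusted p = 0.0206 in limma), and the lowest was Trem2 (-0.32, adjusted p = 0.319). Their summed signal was 5.15 to 5.52 in NC and 5.07 to 5.55 in HE. Of 8 dendritic cell markers 4 were tested, from Flt3, a growth factor receptor, which fell by 0.87 (adjusted p = 0.0291), to Zbtb46 (0.26, adjusted p = 0.237), and Ccr7, Cd209a, Clec9a and Klrb1b lacked signal above background. Of 7 B cell markers 4 were tested and 0 passed (0 at an unadjusted p under 0.05), the lowest being Cd79b (-0.44), and Ms4a1, Pax5 and Blk lacked signal. Of 8 T cell markers 5 were tested and 0 passed (0 at an unadjusted p under 0.05), from Cd3d (-0.04) to Cd8b1 (1.08), and Cd2, Cd3g and Cd8a lacked signal. Summed signals of HE arrays overlapped those of NC arrays for each of these 5 lists, and their part in the values of the class II genes was not tested.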

How the data were processed

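RNA was amplified and labelled with Cy3 by a 1-colour kit, per the labels' protocols, and the submitters' processing notes name Agilent Feature Extraction 10.7 for reading the images. The authors deposited scanner files of spot intensity, background-subtracted within each array per the file headers, and a table of log2 values whose making is not given in the sources used here. That table, used as an alternative, matched quantile-normalized log2 signals (slopes of 1.002, column medians 7.0334 to 7.0337).

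Spots flagged as outliers were left out (68 to 129 per array, 7 of them on member probes), none of the member spots was saturated, repeated spots were averaged by probe, and log2 signals were taken relative to the 75th percentile over 41174 non-control probes. A gene was its entering probe with the highest mean. Names came from the RefSeq table of GRCm38.p6 (27668 probes by accession, 5589 by symbol, 471 by synonym, 7446 kept). The test of HE against NC was two-sided, used limma 3.58.1 (R 4.3.3) without a covariate through lmFit and eBayes, with Benjamini-Hochberg adjustment over all genes, or all probes, and a threshold of 0.05; the fit was checked on simulated data. The members, pathway lists and marker lists were chosen with earlier results of these data known. Named genes were the members, the 4 passing genes of smallest p per pathway list or the 2 of smallest p where none passed, the 3 genes most like B2m, H2-Ab1 and Cd74, and the highest and lowest marker of each list described (some items are not reported here); all named exceptions were chosen after their values were seen. Alternatives covered slide, replicate number, background correction, normalization, filter, joining of probes, prior, Xist status, liver transcripts and each array left out. Each slide had its own scan, so slide and scan cannot be told apart. Slide 1 held only NC arrays and slide 3 only HE arrays, so slide and group are largely confounded. The number of arrays limits the precision, and no 2 arrays were duplicates (SD of their log2 difference 0.444 to 0.722). Same-numbered arrays did not deviate together (r of -0.08, -0.05, 0.13, 0.12 and -0.06), and the labels tie the numbers to no litter or day. The annotation of mm9 was not used here, so exons and untranslated regions of the probes are not named.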

Additional observations from a re-analysis of the deposited data

Results flagged for a closer look

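One of 52 groups of 5 values, for the entering member probes and the named pathway genes, had an array that stood apart. In HE, the bright Tapbp probe read 0.92 on HE 3 and 1.34 to 1.42 on the other 4 arrays, a gap of 0.840 of the whole range, where 0.710 is the limit. Chance flags about 1 in 20 groups.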

How the results depend on the processing

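Over all genes, 4090 passed (1301 higher, 2789 lower). The count was 205 with slide as a fixed block, 8881 with normexp, 8866 with normexp centred on the median gene, 77 on the 7 arrays with high Xist, 1921 without the 3 NC arrays with high Alb, and 1980 to 4214 when 1 array was left out (1980 without NC 2, 2251 without NC 5, 2049 without HE 1). The split was 1900 higher and 2400 lower after quantile normalization, 1918 and 2382 in the deposited table, and 1788 and 7093 with normexp.

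Among class I members 0 passed, but 1 did, B2m, with the mean of its probes (-0.47, adjusted p = 0.0442) and with its most variable probe (-0.76, adjusted p = 0.0224); leaving out an array gave 0 to 0. Among class II members 0 passed, but 2 with normexp and 2 with normexp centred on the median gene (H2-Aa and H2-Eb1), and 0 to 1 without an array. With the replicate block 1 class II member passed, H2-Ab1 (-0.77, adjusted p = 0.0182). The arrays share only a number, and the pairing is not part of the design.

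Of the member probes, 2 passed. The count was 0 with slide as a fixed block and on arrays with high Xist, 6 with normexp and 5 with it centred, 1 after quantile normalization, in the deposited table, with probes well above background on all 10 arrays and without the NC arrays with high Alb, 3 with the replicate block, and 1 to 4 without an array. Without HE 5 the 4 were those of H2-K1 and B2m named above, H2-Eb1 and Tap2.

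The pathway lists had 7 calls, 1 with slide as a fixed block, 27 with normexp, 25 with it centred, 13 with the most variable probe, 11 with Xist status as a covariate, 0 on arrays with high Xist, 3 without the NC arrays with high Alb and 4 to 10 without an array.

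Some values changed sign. H2-K1 was 0.01 within slide 2 (0.0128 with slide as a fixed block), 0.15 with centred normexp, 0.16 as the mean of its probes and 0.54 with its most variable probe. With centred normexp B2m was 0.10, Tapbp 0.21, Tap2 -0.64 (-0.85 with plain normexp), Canx 0.26 (0.0382) and Ifngr1 0.10. H2-Aa was 0.0769 with its most variable probe. Joining other probes changes the sequence read; otherwise the cause was not tested. Cd74, H2-Ab1 and H2-Eb1 kept their direction under all 16 alternatives and without each array. Cd74 passed in none of these that had a test. Ifi30 did not pass with the replicate block (adjusted p = 0.0730). Signal near background limits the Tap1 probe, the dim probes of H2-Aa and B2m, and 3 probes of H2-Ab1, none of which was well above background on all 10 arrays.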

Other observations

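H2-DMb1, the beta chain of the peptide exchanger whose alpha chain is H2-DMa, had 2 probes that ran opposite to each other, chosen after their values were seen. The probe A_51_P278868 read -5.38 and -4.85 on NC 4 and NC 5 and -2.76 to -1.5 on the other 8 arrays. The probe A_52_P146877 read -3.64 and -3.80 on NC 4 and NC 5 and -5.04 to -4.06 on the others. Neither passed over the probes (adjusted p = 0.400 and 0.875 in limma).

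H2-Bl, a class I gene of the blastocyst, had the widest range of its list, also chosen after its values were seen. Its probe A_51_P247114 read -0.57, -2.97, -3.11, 0.38 and 1.04 on NC 1 to NC 5 and -1.10, -6.29, -5.04, -5.53 and -5.30 on HE 1 to HE 5. It fell by 3.60 on the log2 scale (adjusted p = 0.0412 in limma over the probes), while the other 2 probes, at -1.63 and -2.30, did not pass. The gene, represented by another of these probes, had an adjusted p of 0.131.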
